A study of Mus musculus with 9 samples.

Results

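The renin-angiotensin system was examined in kidneys of wild-type mice through 7 genes: Agt, Ren1, Ace, Agtr1a, Mme, Anpep and Enpep. The genes were taken by symbol, and all 7 were found among the 13081 genes listed. RNA was sequenced from 4 kidneys at 3 months (young) and 5 kidneys at 16 months (old). All were labelled wild type, with no allele or agent given to either group, and per the study the mice were C57BL/6, a strain with a single renin gene. The library titles carry one prefix in the young group and another in the old group, so whatever the prefixes stand for and age cannot be told apart. The sex of the mice is not given in the labels used here.

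The system is a cascade of peptide cleavages that sets blood pressure and salt balance. Renin, released by juxtaglomerular cells at the entrance of the glomerulus, cuts angiotensinogen to angiotensin I, and angiotensin-converting enzyme (ACE) trims that peptide to angiotensin II. Angiotensin II acts on the AT1 receptor of vessels, mesangial cells and tubules. Neprilysin (Mme), aminopeptidase N (Anpep) and aminopeptidase A (Enpep) are ectoenzymes of the proximal tubule brush border that shorten the peptides further. In kidney, angiotensinogen is made mainly by the proximal tubule, where it responds to androgen in mice.

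Libraries held 4486406 to 6355095 reads over the listed genes. Values are given as normalised counts, which are reads divided by 1 size factor per library, and the members had from 52 to 496 reads in any library. Log2 fold changes are old minus young on the log2(normalised count + 1) scale. They were tested with limma, and a gene was called when its p-value, adjusted by the Benjamini-Hochberg method over the 12667 genes tested, was under 0.05. Mitochondrial genes took 27.0% to 29.75% of the reads in young libraries and 35.8% to 38.1% in old ones, and the 5 genes other than Ren1 that were called kept their calls when mitochondrial genes were left out. Proximal tubule markers were plentiful at both ages, with summed levels of 43744 to 47901 in young and 41787 to 55878 in old libraries (9 of 10 called, 3 higher and 6 lower in old). Of 5 adrenal cortex markers, 0 were among the listed genes.

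Of the 7 genes, 6 were called, 5 of them lower and 1 higher in old kidneys, and in 5 of 7 the young and old libraries did not overlap. Across all genes tested 59.7% were called, 30.5% lower and 29.2% higher in old, and 49.0% had groups that did not overlap (25.7% lower and 23.3% higher in old). The median log2 fold change of the 7 genes was -0.93, against -0.003 over all genes tested. The call for Ren1 did not hold under most other fits, as given below, whereas those of Agt, Ace, Mme and Anpep held in all 22 alternatives tried and that of Enpep in all 21 in which it was tested. In whole kidney, fewer cells of a type and less RNA per cell cannot be told apart.

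**Figure D1:**
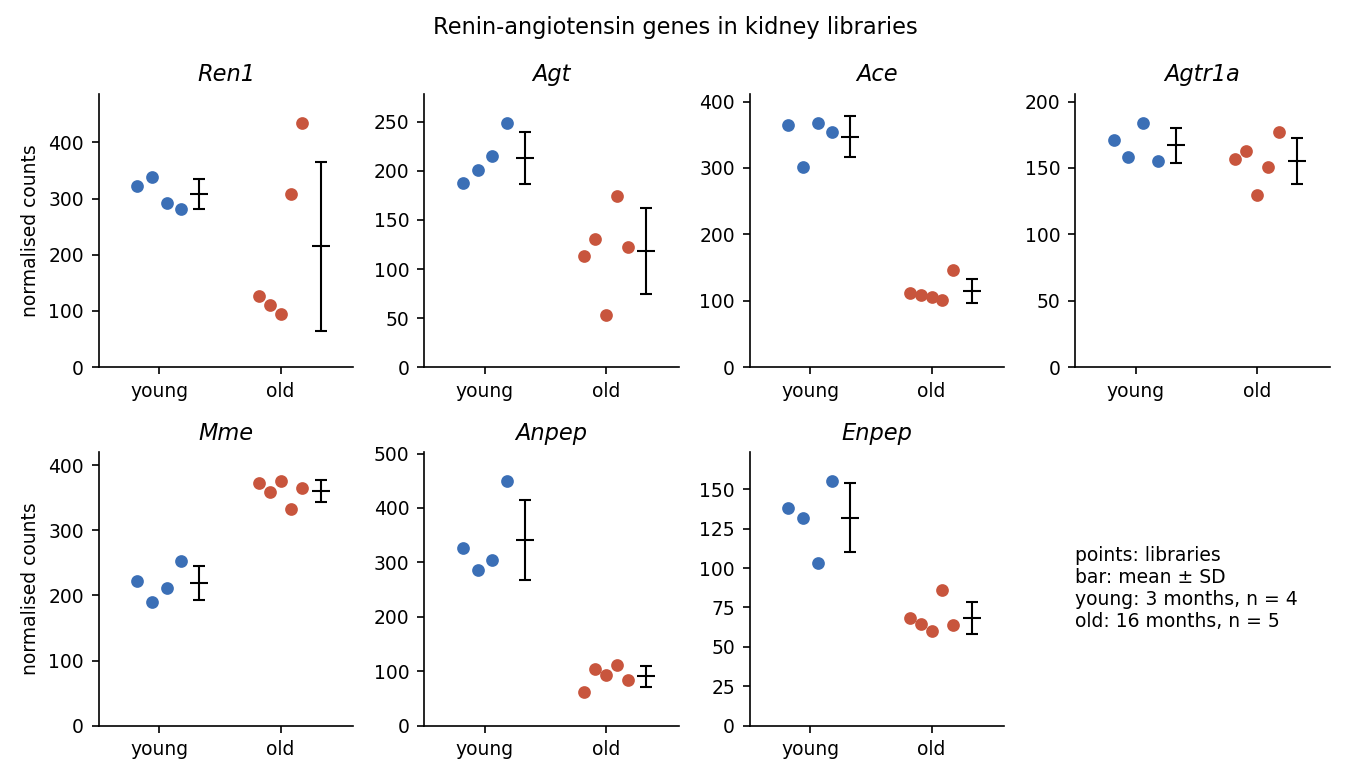
Normalised counts (vertical axes, from 0) of the 7 genes in each library, with young libraries in blue and old libraries in red; bars give the mean and SD. Ace, Anpep, Enpep and Agt were lower in every old library than in any young one, Mme was higher in every old library, and Ren1 in old libraries ran from 95.3 to 435.

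The promoters of the 5 genes that were lower in old kidneys are shown because these genes moved in the same direction. Each sequence is the 150 bases before the start site, read from the RefSeq promoter windows on GRCm38.p6, 5′ to 3′ on the gene's strand. The RefSeq starts used for Ren1, Ace and Anpep lie inside the gene bounds that GENCODE vM21 gives. All bases shown for Ren1 and Anpep, and the last few for Ace, are therefore within the annotated gene. Windows were found for 6 of the 7 genes, the exception being Agtr1a. Capitals mark TATAAA, the classic TATA box, and GGGCGG, the core of a GC box, on either strand. The regions are chr1:133350524-133350673 (plus strand) for Ren1, chr8:124569707-124569856 (minus) for Agt and chr11:105967798-105967947 (plus) for the upstream of the Ace windows. They are chr7:79848211-79848360 (minus) for Anpep and chr3:129332750-129332899 (minus) for Enpep.
Ren1: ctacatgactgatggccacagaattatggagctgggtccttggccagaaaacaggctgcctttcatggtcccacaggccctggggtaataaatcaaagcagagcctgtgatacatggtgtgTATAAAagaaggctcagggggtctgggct
Agt: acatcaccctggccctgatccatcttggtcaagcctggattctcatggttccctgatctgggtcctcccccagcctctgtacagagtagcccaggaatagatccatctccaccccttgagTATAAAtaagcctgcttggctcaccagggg
Ace: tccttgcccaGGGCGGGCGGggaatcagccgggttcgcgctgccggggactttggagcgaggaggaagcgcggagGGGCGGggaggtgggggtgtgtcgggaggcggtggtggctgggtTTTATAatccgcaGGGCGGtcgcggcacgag
Anpep: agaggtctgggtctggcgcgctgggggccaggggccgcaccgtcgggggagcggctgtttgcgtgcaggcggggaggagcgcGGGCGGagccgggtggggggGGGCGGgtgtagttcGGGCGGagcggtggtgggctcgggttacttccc
Enpep: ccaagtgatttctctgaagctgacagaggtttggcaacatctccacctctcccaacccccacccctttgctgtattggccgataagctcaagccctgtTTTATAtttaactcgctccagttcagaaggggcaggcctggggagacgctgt

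The 5 promoters did not share one layout. Ren1 and Agt each held TATAAA on the gene's strand, with its first base at -29 and -30 from the start site. Ace held the same letters on the opposite strand at -31 beside 4 copies of GGGCGG, of which the first 2 overlap. Anpep held 3 copies of GGGCGG in the bases shown and no TATAAA. Enpep held TATAAA on the opposite strand at -52 and again across the start site at -1, and GGGCGG nowhere in its window. Over 32851 windows of 300 bases, read on both strands, 13.6% held TATAAA and 35.7% held GGGCGG. The windows of Mme, the gene that was higher in old, held GGGCGG and no TATAAA. TGATTNAT, the letters of a PBX-HOX motif, searched on both strands and present in 3.22% of windows, was found among the members only in Ren1, at -63 on the opposite strand. TGGGAA, the core read by RBPJ and present in 25.6% of windows, and TGACGTCA, the cAMP response element present in 1.79%, were found in none of the members' windows. These matches describe letters and say nothing of what bound there.

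Agt encodes angiotensinogen, the precursor of all angiotensins, and lies at chr8:124556534-124569706 on the minus strand (GRCm38). Its level was 188, 201, 215 and 249 normalised counts in the 4 young libraries and 113, 130.2, 52.7, 174 and 122 in the 5 old ones. Every old library lay below every young one, with the lowest level in old replicate 3. The mean was 213 ± 26.1 in young (SD, n = 4) and 118 ± 43.7 in old (SD, n = 5), a log2 fold change of -0.93 (SE 0.23, 95% interval -1.42 to -0.45, adjusted p = 0.00186, limma). Of all genes tested, 15.5% fell by more. Without the 3 libraries with the highest Adipoq (young replicate 2, old replicates 1 and 3), a choice made after seeing the data, the log2 fold change was -0.62 and the adjusted p 0.00854 (limma).

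Other markers moved beside Agt. Of 7 kidney genes known to differ between sexes, 4 were called lower in old. The others were higher in old, but Slc7a12 among them is not counted as called, for the reason given below. The summed level of the 7 was 143051 to 175963 in young and 85599 to 125285 in old libraries. Kap, the androgen-regulated protein of the proximal tubule that makes up most of that sum, was lower in old (log2 fold change -0.69, adjusted p = 0.00197, limma). Slc7a12, an amino acid transporter that female kidneys express more, was at 0, 5.83, 0 and 9.96 in young and 28.3, 36.1, 11.2, 37.3 and 25.5 in old libraries. It met the filter on low values only through the old libraries, so no test of it is given. Cyp2j13, a cytochrome that male kidneys express more, went the other way from Kap, with a log2 fold change of 0.40 (adjusted p = 0.00188, limma). The 4 Y-linked genes listed had reads in all 9 libraries, and Xist was not among the listed genes. Every library thus had the sex-linked pattern of a male kidney. Of 4 liver markers, 1 was called higher, Serpina1a (means 61.7 in young and 129 in old), and 1 lower, Ttr (747 and 311). Their sums were 619.9 to 1326 in young and 254 to 607 in old, and Ttr made up most of the sum in every young library. Of 3 adipocyte markers tested 1 was called, Fabp4, which was lower in old (means 490.3 in young and 157 in old). The means of Adipoq (11.1 and 57.2) and Plin1 (11.9 and 33.2) were higher in old, and those of Cfd were 121 and 103. All of these had overlapping groups and a wide spread. The sums were 271 to 1427 in young and 56.0 to 1033 in old, and Plin1 was at 0 in 3 libraries. The part of these markers in the Agt result was not tested.

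Ren1 encodes renin, the aspartyl protease that starts the cascade, and lies at chr1:133350510-133360325 on the plus strand. Its level was 323, 339, 292 and 281 in the young libraries and 126, 110.5, 95.3, 308 and 435 in the old ones. The groups overlapped: old replicates 1, 2 and 3 lay far below all young libraries, old replicate 4 lay among them and old replicate 5 was the highest of all 9. The coefficient of variation was 8.77% in young and 69.8% in old, and the old libraries spanned a 4.56-fold range against 1.21-fold in the young ones.

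The mean of Ren1 was 309 ± 27.1 in young (SD, n = 4) and 215 ± 150 in old (SD, n = 5). The log2 fold change was -0.79 (SE 0.32, 95% interval -1.46 to -0.12, adjusted p = 0.0401, limma). This call was lost in 14 of 22 alternatives. It was lost with edgeR (-0.51, adjusted p = 0.154), with DESeq2 (-0.52, adjusted p = 0.369) and with robust eBayes in limma (adjusted p = 0.202). Leaving out any 1 young library, or old replicate 1, 2 or 3, gave adjusted p-values of 0.0563 to 0.114 in limma. Leaving out old replicate 5 gave a log2 fold change of -1.11 (adjusted p = 0.000969, limma) and leaving out old replicate 4 gave -0.98 (adjusted p = 0.0131, limma). Without the 3 libraries highest in Adipoq it was -0.28 (adjusted p = 0.52, limma), and with the trend against transcript length removed it was -0.49 (adjusted p = 0.207, limma). The direction was the same in all 22 alternatives.

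Markers of the cells around the renin-producing site were not uniformly lower in old kidneys. Of 6 markers of juxtaglomerular, vascular smooth muscle and mesangial cells tested, 3 were called higher and 1 lower. With Cnn1, which was below the filter, their summed level was 422 to 588 in young and 840.1 to 1113 in old libraries. Much of that rise was Tagln, with means of 85.7 in young and 393 in old. Acta2 did not pass the test (means 221 and 243, adjusted p = 0.713, limma). Tagln, an actin-binding protein of smooth muscle, rose by 2.21 on the log2 scale (adjusted p = 3.04e-10, limma), whereas Pdgfrb, the receptor of mesangial cells and pericytes, fell by 0.80 (adjusted p = 0.00748, limma). The part of these markers in the spread of Ren1 was not tested.

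Ace encodes the converting enzyme, found on the brush border and on endothelium, and lies at chr11:105967945-105989964 on the plus strand. Its level was 365, 302, 368 and 354 in young and 111, 109, 106, 101 and 147 in old libraries. All old libraries lay far below the young ones and close to each other, apart from old replicate 5. The mean was 347 ± 30.6 in young (SD, n = 4) and 115 ± 18.6 in old (SD, n = 5), a 3.02-fold lower level (log2 fold change -1.60, SE 0.13, 95% interval -1.86 to -1.33, adjusted p = 5.96e-09, limma). Of all genes tested, 5.65% fell by more, and over the alternatives the value stayed between -1.74 and -1.45.

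Endothelial markers did not move with Ace. Of 7 tested, 5 were called higher in old and 0 lower, with sums of 1239 to 1361 in young and 1658 to 2023 in old libraries. Markers of the S3 segment, the last stretch of the proximal tubule, were lower in old: all 5 were called, with a median log2 fold change of -1.14 and sums of 6968 to 7777 in young and 2895 to 4103 in old. Among them, Cyp7b1 is also on the list of kidney genes known to differ between sexes and is counted in both lists. The part of these markers in the levels of Ace, Agt, Anpep and Enpep was not tested.

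Agtr1a encodes the main AT1 receptor of the mouse kidney and lies at chr13:30336441-30382867 on the plus strand. Its level was 171, 158, 184 and 155 in young and 157, 163, 129.8, 151 and 177 in old libraries. The groups overlapped in part: old replicates 3 and 4 lay below every young library, and young replicate 3 lay above every old one. The mean was 167 ± 13.4 in young (SD, n = 4) and 156 ± 17.4 in old (SD, n = 5), and the log2 fold change of -0.11 (95% interval -0.36 to 0.15, adjusted p = 0.47, limma) did not pass the test. Its sign turned when mitochondrial genes were left out and when a trend with transcript length was removed. The interval includes both a fall and a smaller rise.

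Mas1, the receptor of a heptapeptide cut from the angiotensins, was too low for the main test. It had 13, 12, 8 and 16 reads in young and 2, 2, 1, 2 and 2 reads in old libraries. Old libraries were all lower, and in the fit without a filter the log2 fold change was -2.06 (adjusted p = 0.000957, limma). With 1 or 2 reads in each old library its fold is poorly set, and the gene Airn lies on the opposite strand near its end. Agtr1b and Agtr2, the other angiotensin II receptors of the mouse, were not among the listed genes.

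Mme encodes neprilysin, which forms that heptapeptide from angiotensin I and is also made by podocytes, and lies at chr3:63241537-63386030 on the plus strand. Its level was 222, 190.4, 212 and 252 in young and 372, 358, 375, 332 and 364 in old libraries. Every old library lay above every young one, and the old libraries were close to each other. The mean was 219 ± 25.5 in young (SD, n = 4) and 360.3 ± 17.2 in old (SD, n = 5), a 1.65-fold higher level (log2 fold change 0.72, SE 0.11, 95% interval 0.50 to 0.94, adjusted p = 1.11e-05, limma). Of all genes tested, 17.9% rose by more. With the trend against transcript length removed, an alternative added after seeing the data, the value was 0.31 (adjusted p = 0.0189, limma); the longest coding transcript of Mme, at 8039 bases, is the longest among the 7 genes. Of 6 podocyte markers 4 were called higher and 1 lower, with sums of 712 to 780.4 in young and 778 to 942 in old libraries, and their part in the result was not tested. Of 5 leukocyte markers tested, 3 were called higher and 0 lower, with sums of 851 to 1011 in young and 1098 to 1520 in old libraries, and their part in the levels of Mme and Anpep was not tested either.

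Anpep encodes aminopeptidase N, which turns angiotensin III into angiotensin IV, and lies at chr7:79821803-79861059 on the minus strand. Its level was 327, 286, 305 and 449 in young and 62.5, 105, 92.3, 112 and 83.8 in old libraries. Even the highest old library lay far below the lowest young one, and young replicate 4 stood above the other young libraries. The mean was 342 ± 73.6 in young (SD, n = 4) and 91.1 ± 19.4 in old (SD, n = 5), a 3.73-fold lower level by the log2 fold change of -1.90 (SE 0.17, 95% interval -2.25 to -1.55, adjusted p = 1.91e-08, limma). It was the largest change of the 7, and 3.49% of all genes tested fell by more.

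Enpep encodes aminopeptidase A, which turns angiotensin II into angiotensin III, and lies at chr3:129269175-129332720 on the minus strand. Its level was 138, 132, 103 and 155 in young and 68.4, 64.5, 59.8, 85.8 and 63.6 in old libraries. The groups did not overlap, and the highest old library came near the lowest young one. The mean was 132 ± 21.6 in young (SD, n = 4) and 68.4 ± 10.2 in old (SD, n = 5), with a log2 fold change of -0.93 (SE 0.16, 95% interval -1.26 to -0.60, adjusted p = 5.08e-05, limma). Enpep fell less than Anpep: the ratio of their reads was 0.392 ± 0.0606 in young (SD, n = 4) and 0.777 ± 0.19 in old (SD, n = 5), without overlap. The ratio of Mme to Anpep reads moved from 0.65 ± 0.0609 to 4.15 ± 1.15 and that of Mme to Ace reads from 0.631 ± 0.0577 to 3.18 ± 0.412 (SD, n = 4 young and 5 old), both without overlap. The ratio of Ren1 to Agt reads overlapped, at 1.47 ± 0.281 in young and 1.82 ± 1.06 in old (SD, n = 4 and 5). A ratio within a library does not depend on the size factors, and it compares reads rather than molecules. These ratios were chosen after the values were known and were not tested.

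**Figure D2:**
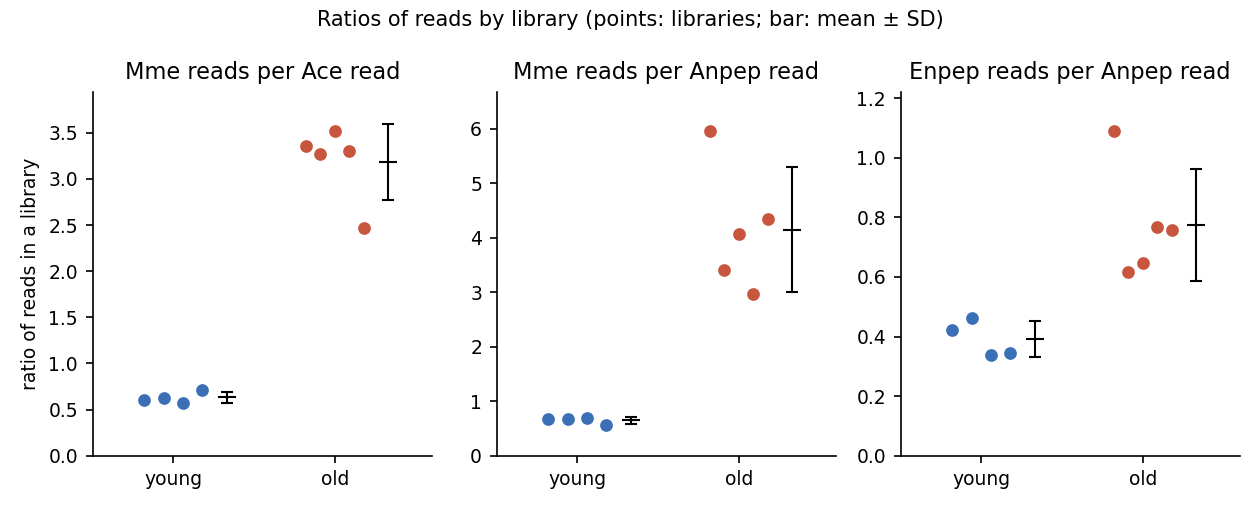
Ratio of the reads of 2 genes (vertical axes, from 0) in each young (blue) and old (red) library; bars give the mean and SD. Mme reads per Ace read lay between 0.576 and 0.711 in young and between 2.47 and 3.52 in old libraries, Mme per Anpep between 0.56 and 0.695 and between 2.97 and 5.96, and Enpep per Anpep between 0.338 and 0.463 and between 0.615 and 1.09.

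Beyond the 7 genes, 22 other genes of angiotensin formation and breakdown were listed for comparison. Of these, 16 were among the listed genes of the table and 15 were tested, and 12 were called, 10 lower and 2 higher in old. Their median log2 fold change was -0.56. Prcp, a prolylcarboxypeptidase that cuts angiotensin II, fell most, from 236 ± 20.9 to 48 ± 6.29 normalised counts (SD, n = 4 young and 5 old), a log2 fold change of -2.28 (adjusted p = 2.5e-10, limma). Prep, a prolyl endopeptidase that can form the heptapeptide, fell by 1.18 (adjusted p = 0.000231, limma), and Ece1, the endothelin-converting enzyme, fell by 1.19 (adjusted p = 3.93e-07, limma). Atp6ap2, the prorenin receptor and an accessory subunit of the proton pump, fell from 664 ± 26.7 to 301 ± 39.1 (SD, n = 4 young and 5 old), by 1.15 on the log2 scale (adjusted p = 3.44e-08, limma).

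Proteases of the lysosome differed among themselves. Ctsa fell by 0.67 (adjusted p = 0.000169, limma) and Ctsb, which can activate prorenin in the test tube, fell by 0.56 (adjusted p = 1.83e-05, limma). Ctsd, with means of 1707 ± 109 in young and 1850 ± 133 in old (SD, n = 4 and 5), did not pass the test (log2 fold change 0.12, adjusted p = 0.277, limma). It passed with mitochondrial genes left out (0.26, adjusted p = 0.0181, limma) and with the trend against transcript length removed (0.34, adjusted p = 0.00278, limma), and the gene Gm49369 lies on the same strand at its end.

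Dpp3, a peptidase that degrades angiotensin II, fell by 0.58 (adjusted p = 0.000416, limma), with Bbs1 on the same strand near its end. Klk1, the tissue kallikrein that releases kinins, fell by 1.48 (adjusted p = 1.1e-07, limma). That value is uncertain, because 30.6% of the 50-base pieces of its last 500 bases are shared with other kallikrein genes. Agtrap, which promotes removal of the AT1 receptor from the cell surface, fell by 0.27 (adjusted p = 0.0265, limma), a call lost in 6 of 22 alternatives.

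Rnpep and Lnpep are aminopeptidases outside the 7 genes, and the call of each depended on the processing. Rnpep, aminopeptidase B, fell by 0.52 (adjusted p = 0.00971, limma) with overlapping groups, and lost the call with mitochondrial genes left out (adjusted p = 0.0611, limma) and with the length trend removed (-0.32, adjusted p = 0.0911, limma). Lnpep, the insulin-regulated aminopeptidase that binds angiotensin IV, rose by 0.67 (adjusted p = 1.76e-05, limma), but was at 0.05 (adjusted p = 0.709, limma) once the trend with transcript length was removed. Its longest coding transcript has 12052 bases. Thop1 (log2 fold change 0.55, adjusted p = 0.0724, limma) and Nln (log2 fold change -0.14, adjusted p = 0.444, limma), a pair of related endopeptidases, did not pass the test. Thop1 did pass with mitochondrial genes left out (adjusted p = 0.0297, limma), without old replicate 2 (adjusted p = 0.0268, limma) and with the length trend removed (adjusted p = 0.0305, limma).

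**Figure D3:**
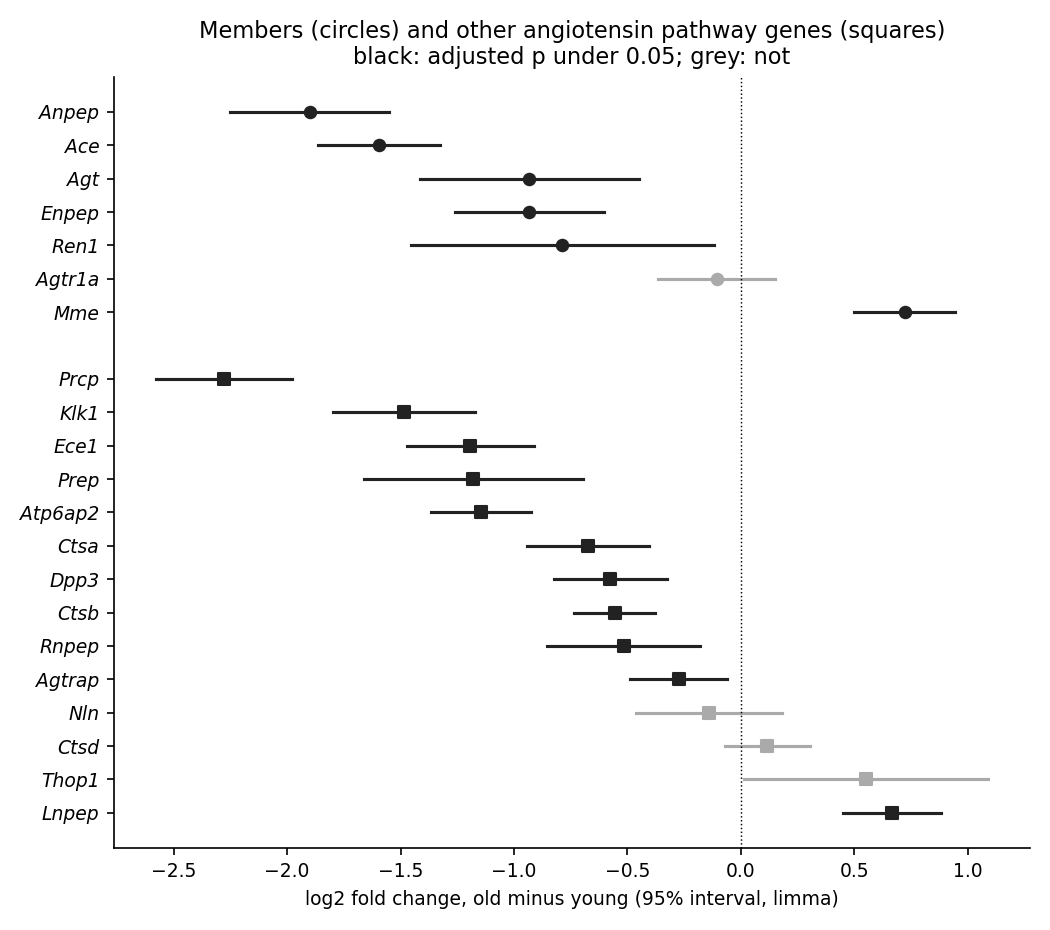
Log2 fold change, old minus young, with its 95% interval from limma (horizontal axis) for the 7 genes (circles) and 14 other angiotensin pathway genes (squares); black marks adjusted p-values under 0.05. Prcp and Anpep lie farthest to the left, at -2.28 and -1.90, and Mme and Lnpep are the called genes plotted to the right of 0.

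Genes that act before or after the peptides were counted in the same way. Of 14 regulators of renin cells tested, 10 were called, 6 higher and 4 lower in old. Notch1 rose by 1.41 (adjusted p = 2.68e-06, limma) and Rbpj, the DNA-binding partner of Notch that maintains renin cell identity, rose by 0.95 (adjusted p = 1e-05, limma). Ep300, a histone acetyltransferase used by the cAMP pathway of renin cells, rose by 1.15 (adjusted p = 8.4e-08, limma), whereas Prkaca, the catalytic subunit of protein kinase A, fell by 0.93 (adjusted p = 0.000139, limma). With the trend against transcript length removed, Notch1 was at 0.92 (adjusted p = 0.000558, limma) and Ep300 at 0.65 (adjusted p = 7.36e-05, limma). These genes are expressed in many kidney cells besides renin cells.

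Of 10 genes of AT1 receptor signalling tested, 6 were called, 4 higher and 2 lower in old. Gnaq, the G protein subunit that the receptor couples to, fell from 275 ± 16.1 to 138 ± 21.8 normalised counts (SD, n = 4 young and 5 old; adjusted p = 2.27e-06, limma). Plcb3, a phospholipase downstream of it, rose by 1.19 (adjusted p = 7.12e-05, limma). Arrb1, a beta-arrestin, rose by 0.84 (adjusted p = 2.29e-05, limma), or by 0.49 with the length trend removed (adjusted p = 0.00302, limma), and Rgs5, which quenches the G protein in pericytes, rose by 0.72 (adjusted p = 0.000579, limma).

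Of 9 genes of the response to aldosterone, the hormone that angiotensin II releases from the adrenal, 5 were called, 2 higher and 3 lower in old. Sgk1, a kinase induced through the mineralocorticoid receptor, rose from 127 ± 11.8 to 308 ± 67.6 normalised counts (SD, n = 4 young and 5 old), by 1.25 on the log2 scale (adjusted p = 4.32e-07, limma). Hsd11b2, which shields that receptor from glucocorticoids, fell by 0.87 (adjusted p = 1.7e-05, limma). Of the 3 subunits of the epithelial sodium channel listed, Scnn1a rose by 0.80 (adjusted p = 1.99e-05, limma) and Scnn1g fell by 0.94 (adjusted p = 0.000119, limma). Scnn1b, named after its values were seen, fell by 0.59 (adjusted p = 0.00294, limma). Nr3c2, the receptor itself, had a log2 fold change of 0.17 (adjusted p = 0.681, limma) at a mean of 16.5 ± 7.17 in young and 17.7 ± 4.38 in old libraries (SD, n = 4 and 5).

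Of the kinin genes, 3 were tested and 1 was called. Cpn1, the carboxypeptidase that trims kinins in plasma, rose by 0.49 (adjusted p = 0.0016, limma). Over all 5 lists, 34 of 51 genes tested were called, 15 higher and 19 lower in old, beside 59.7% of all genes.

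Each of the 7 genes was also set beside the 5655 tested genes whose mean reached 100, by the root mean square difference of their log2 values over the 9 libraries after each gene was centred. The profile nearest to Ren1 was that of Nelfcd, at 0.295, with levels of 104, 90.8, 94.3, 187 and 211 in the old libraries. Like Ren1 it was low in old replicates 1 to 3 and higher in old replicates 4 and 5. Nelfcd was near its young level in both of the latter, whereas Ren1 in old replicate 5, at 435, lay above every young library. The nearest to Agt was Slc52a2 at 0.237 and the nearest to Enpep was Rdh16 at 0.142. Ace lay nearest to Stoml2 at 0.146 and Anpep nearest to Ppif at 0.163. Agtr1a lay nearest to Trmt112 at 0.078, and Mme to Chmp4b and Braf, both at 0.088. Among the members the closest pairs were Ace with Anpep, at 0.366, and Agt with Enpep, at 0.367. These distances cover both ages and so include the difference between them.

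**Figure D4:**
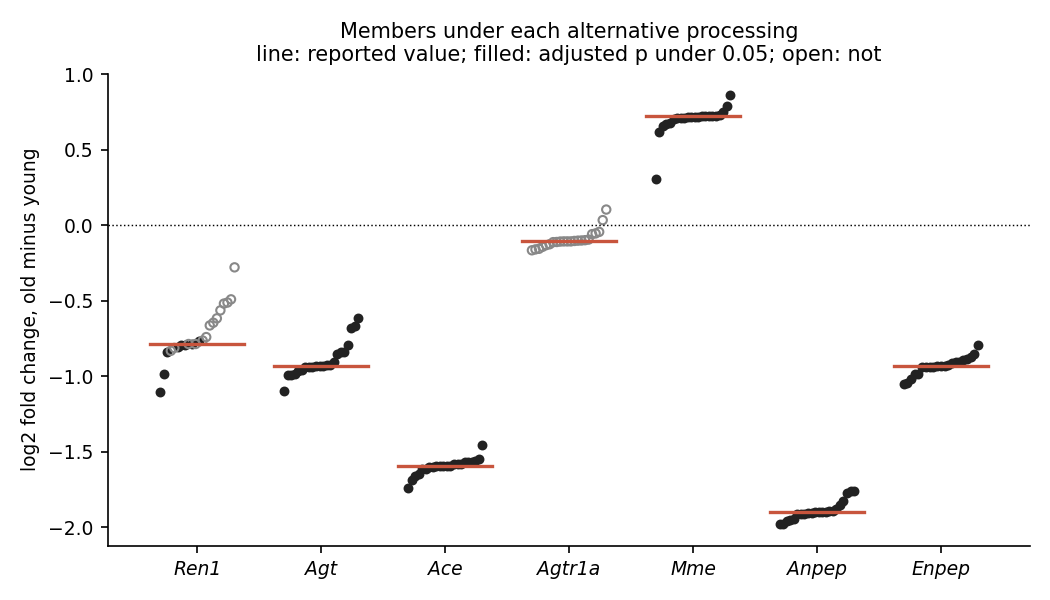
Log2 fold change, old minus young (vertical axis), of each of the 7 genes under each alternative processing (points, sorted within a gene) and as reported (red line); filled points have adjusted p-values under 0.05. Ren1 spread from -1.11 to -0.28 and was mostly open, Mme had 1 value at 0.31 apart from the rest, and Agtr1a crossed 0.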

How the data were processed

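RNA from 9 kidneys was converted by the authors to libraries that read transcript ends from oligo(dT) primers and sequenced as stranded single reads. The notes of the submitters name TopHat2 2.0.10, Bowtie 1.0.0, SAMtools 0.1.19, HTSeq 0.6.1, DESeq2 and the build GRCm39. The deposited unit is a signal: the authors divided the reads of each gene by 1 size factor per library. The smallest positive value of a library was taken as 1 read, and 100% of values were whole multiples of it within 0.01 of a read. The lowest mean of any gene was 4.49, and genes with a lower mean are not analysed here. A count of 3 reads was 4.72e-05% to 6.69e-05% of a library, which covers counting error only.

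Groups came from the age in the labels, and libraries were numbered in listed order. Each library was taken as 1 mouse, since the design text counts mice. Old was compared with young by limma 3.58.1 (lmFit, eBayes with trend, two-sided) in R 4.3.3 on log2(normalised count + 1), which understates changes of low genes. Genes that reached 10 normalised counts in 4 or more libraries were tested, with Benjamini-Hochberg adjustment. Alternatives were pseudocounts of 0.1 and 5, no filter, a mean of at least 100, TMM factors, equal table totals, mitochondrial genes left out with the rest rescaled, robust eBayes, count models of the recovered reads (DESeq2 1.42.0, and edgeR 4.0.16 by quasi-likelihood), thinned reads and each library left out. The alternatives without the 3 libraries highest in Adipoq, and with a lowess trend against transcript length removed, were added after seeing the data.

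The members and lists were chosen with earlier results of these data known. The rule for named genes took the members, all tested genes of the angiotensin list, the 4 called genes of each other list with the largest change and no overlap, with Hsd11b2, Nr3c2 and Sgk1, and the nearest profiles. 1 gene of the angiotensin list is counted but not reported here. Outside the rule, Mas1, Scnn1b and single markers were named after their values were seen, and Adipoq for its use in an alternative. Those markers were Kap, Slc7a12, Cyp2j13, Cyp7b1, Xist, Serpina1a, Ttr, Fabp4, Plin1, Cfd, Tagln, Acta2, Cnn1 and Pdgfrb. Gene positions are from GENCODE vM21 on GRCm38 and promoters from RefSeq on GRCm38.p6, neither being the authors' build.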

Additional observations from a re-analysis of the deposited data

Results flagged for a closer look

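In 72 groups of 4 or 5 libraries, 6 held 1 library far from the others, by the ratio of its gap to the group's range, on log2(normalised count + 1), against Dixon's critical value. Chance flags about 1 in 20 groups, or 3.6 here. Ace in old replicate 5 was 147, against 101 to 111 in the other old libraries (ratio 0.751). Prep in old replicate 1 was 16.5, against 34.5 to 37.5 (ratio 0.897). In the young group, Ctsd was 1545 in replicate 4, against 1743 to 1774 (ratio 0.872), and Ep300 was 165 in replicate 1, against 201 to 209 (ratio 0.838, or 0.821 on untransformed values, which would not exceed the critical value). Young replicate 2 was highest for both Rbpj, at 116 against 86.9 to 90.1 (ratio 0.874), and Scnn1a, at 256 against 221 to 224 (ratio 0.923). In each of these 6 genes the value lay outside the rest of its own group, and Ace, Prep, Ep300, Rbpj and Scnn1a still had groups that did not overlap. The wide spread of Ren1 in old libraries did not meet this criterion.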

How the results depend on the processing

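Under 22 alternatives 4 to 6 of the 7 genes were called, and 5 or 6 with any 1 library left out. Of the other pathway genes 34 were called, and 31 to 34 under each alternative that kept the main filter rule; without a filter 35 were called, Mas1 among them, and 29 with a mean of at least 100, where fewer were tested. The log2 fold changes of Agt, Ace, Mme, Anpep and Enpep kept their direction and their call wherever they were tested. Ren1 kept its direction, from -1.11 to -0.28, and lost its call in 14 of 22. Agtr1a reversed sign, to 0.034 with mitochondrial genes left out and 0.104 with the length trend removed, and Nln moved to 0.000 in the former. Nr3c2 reversed to -0.084 with the length trend removed and ran from -0.068 (without young replicate 4) to 0.365 with 1 library left out, and neither gene passed the test in any of these fits. Over all genes 7568 were called, and 4101 with a mean of at least 100, where fewer genes were tested. Thop1 and Ctsd, not called otherwise, passed in 3 and 2 alternatives. Leaving out mitochondrial genes moved the median log2 fold change of the other genes from -0.005 to 0.135 and the calls from 3704 higher and 3864 lower to 4472 higher and 3173 lower. Reads per member, 52 to 496, and 4 and 5 libraries per group limit the precision. No paired analysis was possible because the titles carry no replicate number shared between the ages.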
